A study of Mus musculus with 6 samples.

Results

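The mouse miRNAs mmu-miR-375, mmu-miR-7a, mmu-miR-7b, mmu-miR-9, mmu-miR-124, mmu-miR-128a and mmu-miR-137 (written without the species prefix from here on) are known best from neurons and hormone-secreting cells, and their levels were followed here in newborn mouse lung. Their wells were found by assay name, with opposite-strand assays left out, which gave 7 wells among the 750 miRNA wells of the table, all 7 on the first of 2 cards. The study set right lungs of mice kept in 95% oxygen for 7 days from an age under 12 hours (hyperoxia, 3 samples) against those of mice left in room air for as long (3 samples), all taken at day 7 of life. The dams changed places daily between both atmospheres, and blood was flushed from the pulmonary vessels before the lung was frozen. Strain, genotype and sex are not given in the sources used here. Nor do the labels say whether each sample is a separate animal, so the p-values cover sample-to-sample spread that may be technical. Each value is a threshold cycle (Ct), the PCR cycle at which a well's signal crosses a threshold. A lower Ct stands for more RNA, 1 cycle for a factor of 2 at full efficiency, and a Ct of 40 for a well without amplification. A Ct of 35 or more was taken as not detected.

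In the nervous system, miR-124, miR-9, miR-128 and miR-137 are made in neurons or their progenitors, where they repress genes of other cell fates and of proliferation. miR-7 and miR-375 are shared by neurons or the pituitary and by the endocrine cells of the pancreas, which release hormones from granules by the same machinery as the neuroendocrine cells of the airway. Those airway cells are rare, sit singly or in small clusters in the bronchial epithelium, and are known to sense oxygen. miR-375 is also made by other epithelial cells, so it does not mark neuroendocrine cells by itself. The samples are whole-lung RNA, in which fewer cells of a type and less RNA per cell cannot be told apart.

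The mature sequences below were taken from RefSeq (build GRCm38.p6), which gave 5 of the 7 members, and they are shown because members with a shared seed have shared predicted targets. Capitals mark the seed, bases 2 to 8, by which a miRNA finds its targets.
miR-7a: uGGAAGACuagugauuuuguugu
miR-7b: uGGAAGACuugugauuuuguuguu
miR-9: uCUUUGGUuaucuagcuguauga
miR-128a: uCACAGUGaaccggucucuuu
miR-137: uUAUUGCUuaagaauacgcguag
The 5 sequences have 4 different seeds, and miR-7a and miR-7b share theirs. Over the 23 positions that both have, miR-7a and miR-7b are identical at 22 and differ by A10U (miR-7a base first, position counted from 1 at the 5′ end), and miR-7b ends in 1 further base. Whether the assay of either also reads the other was not tested. miR-7a comes from chr13:58392841-58392863 on the minus strand, within the span of Hnrnpk, a gene for an RNA-binding protein, and from chr7:78888295-78888317 on the plus strand, outside any other annotated gene. miR-7b lies at chr17:56243017-56243040 on the plus strand and miR-137 at chr3:118433901-118433923 on the plus strand, both outside other annotated genes. miR-9 has 3 plus-strand copies within non-coding RNA genes: chr3:88215613-88215635 in Gm3764, chr7:79505279-79505301 in Mir9-3hg and chr13:83738821-83738843 in C130071C03Rik. miR-128a, now called miR-128-3p, lies in the protein-coding genes R3hdm1 at chr1:128202404-128202424 on the plus strand and Arpp21 at chr9:112118644-112118664 on the minus strand. The annotation used gives gene spans only, so exon or intron is not stated. An assay of a miRNA with several copies reads them together. For miR-375 and miR-124 only the name is given.

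On the first card 312 to 319 miRNA wells were detected in hyperoxia samples and 307 to 317 in room air samples. The 2 endothelial miR-126 assays, the 7 epithelial assays of the miR-200 family, miR-203 and miR-205, and 4 of 5 smooth muscle and mesenchymal assays on that card were detected in all 6 samples. So were the 4 leukocyte assays, the 2 erythroid assays, miR-122 of liver and 2 of 3 assays of ciliated cells on that card. On the second card, room air 1 and hyperoxia 2 carried the identical Ct in 308 of 309 wells that amplified in both, against 0 of 312 on the first card. Those second-card values were left out, and no member is on that card. The mean Ct over the 282 assays that every sample detected on the first card was later in hyperoxia, at 23.5, 22.6 and 23.3, against 22.0, 22.5 and 22.6 in room air. The difference was 0.76 cycles with p = 0.1 by an exact two-sided permutation test, which cannot go lower with 3 samples per group. Members are therefore given as Ct and, where tested, also as relative abundance, the log2 distance of its Ct from that mean in the same sample, on which a positive number means above the mean.

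Neither direction of change was called for any of the 6 members that could be tested. Relative abundance was compared by limma over 551 miRNA assays of both cards, of which 0 (0%) passed an adjusted p of 0.05 by Benjamini-Hochberg adjustment. Among the members 0 of 6 passed, and 0 of 6 had an unadjusted p under 0.05, against 50 of the 551 assays (9.07%) and 33 of the 302 first-card assays (10.9%). Of the 6, 3 had a positive and 3 a negative log2 fold change of hyperoxia over room air, with a median of 0.04. Over all 551 assays 232 (42.1%) were positive and the median was -0.12, and on the first card 41.1% were positive. In 0 of 6 members were the 3 hyperoxia samples separate from the 3 room air samples in relative abundance, against 62 of 282 first-card assays (22%), of which 16 (5.67% of the 282) were higher and 46 (16.3%) lower in hyperoxia. On the raw Ct, all 3 hyperoxia samples were later than all 3 room air samples for 3 of 6 members (miR-375, miR-9 and miR-128a), a pattern that 131 of the 282 assays (46.5%) also had. The reverse was seen for 0 of 6 members and 3 of the 282 assays (1.06%).

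**Figure D1:**
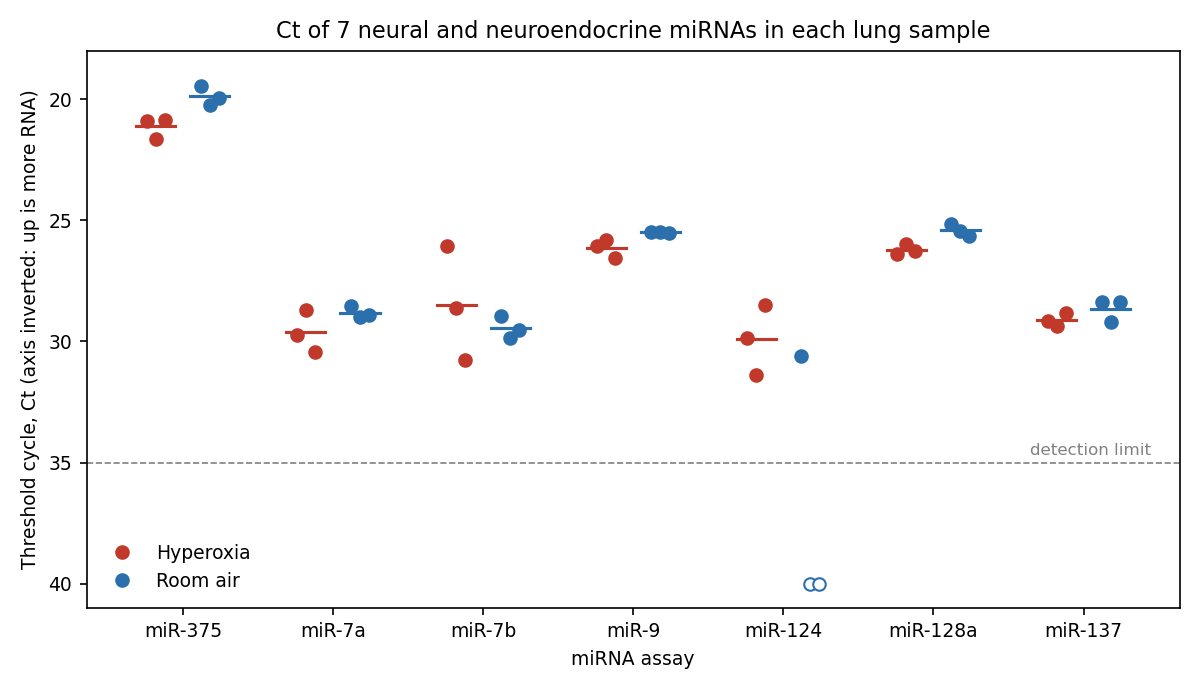
Ct of each member in each sample (vertical axis, inverted so that more RNA is higher), with hyperoxia in red on the left and room air in blue on the right. Points are samples, bars are means of 3 detected samples, open points are wells without amplification at a Ct of 40, and the dashed line is the detection limit of 35; miR-375 stands above the others, and miR-124 has 2 open points in room air.

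The members spanned a wide range of levels, and their order can be read only roughly, because assays can differ in efficiency. miR-375 was the most abundant by Ct, ranked 104 in hyperoxia and 95 in room air among the 282 assays detected throughout. miR-128a and miR-9 followed, 5.09 cycles later than miR-375 for miR-128a in hyperoxia and 5.54 cycles later in room air. These 2 could not be separated from each other: the Ct of miR-9 minus that of miR-128a was -0.36, -0.16 and 0.32 in hyperoxia, against 0.32, 0.04 and -0.11 in room air. miR-137, miR-7a and miR-7b came last among those detected throughout, at ranks from 246 to 262 in hyperoxia and from 255 to 266 in room air. The Ct ranges of miR-137 and miR-7a overlapped within each group, as did those of miR-7a and miR-7b. miR-124, the most neuron-restricted of the members, was the only member not detected in every sample.

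**Figure D2:**
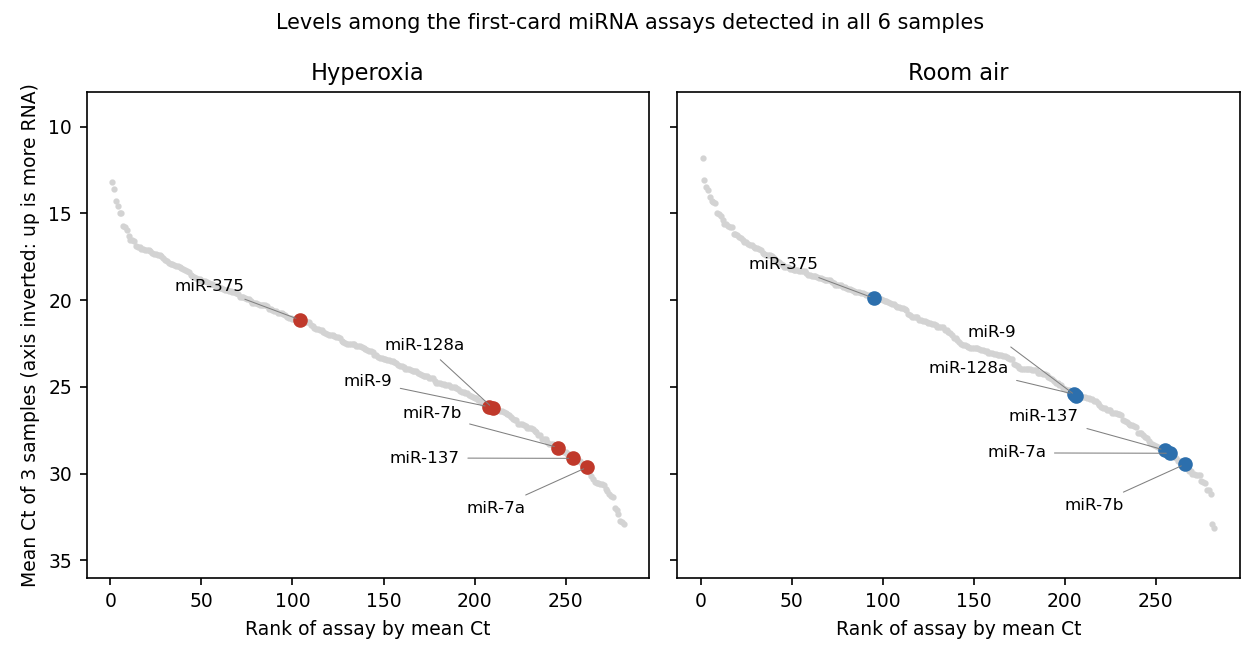
Mean Ct of 3 samples (vertical axis, inverted) against rank for the 282 first-card miRNA assays detected in all 6 samples (grey), with members in red in hyperoxia (left) and blue in room air (right). miR-375 lies in the upper part of the curve at rank 104 in hyperoxia and 95 in room air, and the other 5 members shown lie in the lower part.

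miR-375, which restrains insulin secretion in the pancreatic islet, is the member with the most RNA in lung. Its Ct was 20.90, 21.63 and 20.85 in hyperoxia, against 19.45, 20.24 and 19.95 in room air, so the groups did not overlap before normalization. Relative to the card's mean it stood at 2.57, 0.98 and 2.46 in hyperoxia and at 2.57, 2.25 and 2.65 in room air. On this scale the groups overlapped and hyperoxia 2 alone lay below all others. Hyperoxia over room air gave a log2 fold change of -0.49 ± 0.49 (SE, 95% interval -1.70 to 0.73; limma adjusted p = 0.775). Without hyperoxia 2 it was 0.034. With the small RNA controls as the reference it was -1.05 (limma adjusted p = 0.462), and without normalization -1.25 (limma adjusted p = 0.201).

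Because miR-375 is also epithelial, it was set against the 7 epithelial assays of the card, a comparison chosen after its values were seen. These 7 had log2 fold changes between -0.29 and 0.20, and 0 of 7 passed. Their summed level, in multiples of the card's mean level, ran from 113 to 189 in hyperoxia and from 164 to 185 in room air. The log2 ratio of miR-375 to the mean of the 7 epithelial assays was -0.96, -1.88 and -1.11 in hyperoxia, against -0.67, -1.13 and -0.89 in room air. The groups overlapped, with hyperoxia 2 lowest, and the difference of -0.42 had an exact two-sided permutation p of 0.3 (0.5 adjusted over the 4 within-sample ratios compared). Without hyperoxia 2 the difference was -0.14. The assays of ciliated cells, a further airway epithelial type, pointed both ways. Their summed level was between 3.62 and 15.4 in hyperoxia, against 15.1 to 21.3 in room air. Most of that sum is miR-449a, with a log2 fold change of -1.44, while miR-34c had one of 0.47. The first-card well of miR-449b was detected in room air 1 only. On the second card, where names do not match the assay numbers, miR-449b was at -1.03 ± 0.32 (SE) and miR-34b-5p at 0.62. The part of ciliated cells in the values of the members was not tested.

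miR-7a, abundant in pituitary and islet cells, was among the members with the least RNA. Its Ct was 29.73, 28.70 and 30.42 in hyperoxia, against 28.54, 28.99 and 28.93 in room air. Hyperoxia 2 lay within the narrower room air range, and the other hyperoxia samples were later than all room air samples. Its relative abundance was -6.27, -6.09 and -7.11 in hyperoxia, against -6.52, -6.51 and -6.33 in room air, where hyperoxia samples lay on both sides of the room air range. In relative abundance the log2 fold change was -0.04 ± 0.34 (SE, 95% interval -0.88 to 0.81; limma adjusted p = 0.969). It was 0.24 without hyperoxia 3 and 0.017 without room air 3. With the small RNA controls as the reference it was -0.60, and without normalization -0.80.

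miR-7b, the close relative with the same seed that is prominent in hypothalamus and pituitary, had the widest spread. Its Ct was 26.06, 28.64 and 30.77 in hyperoxia, against 28.97, 29.85 and 29.53 in room air. The hyperoxia samples spread over more than the whole room air range, with hyperoxia 1 earliest of all 6 samples and hyperoxia 3 latest. As relative abundance the values were -2.59, -6.03 and -7.47 in hyperoxia and -6.94, -7.37 and -6.93 in room air. A log2 fold change of 1.72 ± 1.24 (SE, 95% interval -1.37 to 4.81) did not pass (limma adjusted p = 0.689). Without hyperoxia 1 it was 0.32, and without hyperoxia 3 it was 2.74. The spread within groups was larger for miR-7b than for 91.8% of the 282 assays detected throughout.

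Setting both miR-7 assays against each other within a sample removes any shift of the whole card. The Ct of miR-7b minus that of miR-7a was -3.67, -0.06 and 0.36 in hyperoxia, against 0.42, 0.86 and 0.60 in room air. The groups did not overlap, the smallest gap being between hyperoxia 3 and room air 1. The mean was -1.12 ± 2.22 in hyperoxia and 0.63 ± 0.22 in room air (SD, n = 3 each), a difference of -1.75 cycles with an exact two-sided permutation p of 0.1, the smallest possible here, and 0.4 adjusted over the 4 ratios. Without hyperoxia 1 the difference was -0.48 cycles. This ratio was also chosen after the values were seen, a choice that the adjustment does not cover. The 4 ratios are miR-7b to miR-7a, miR-375 to the epithelial assays, miR-9 to miR-128a and miR-137 to miR-128a. For the last, the Ct of miR-137 minus that of miR-128a differed by -0.33 cycles (exact two-sided permutation p = 0.5).

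**Figure D3:**
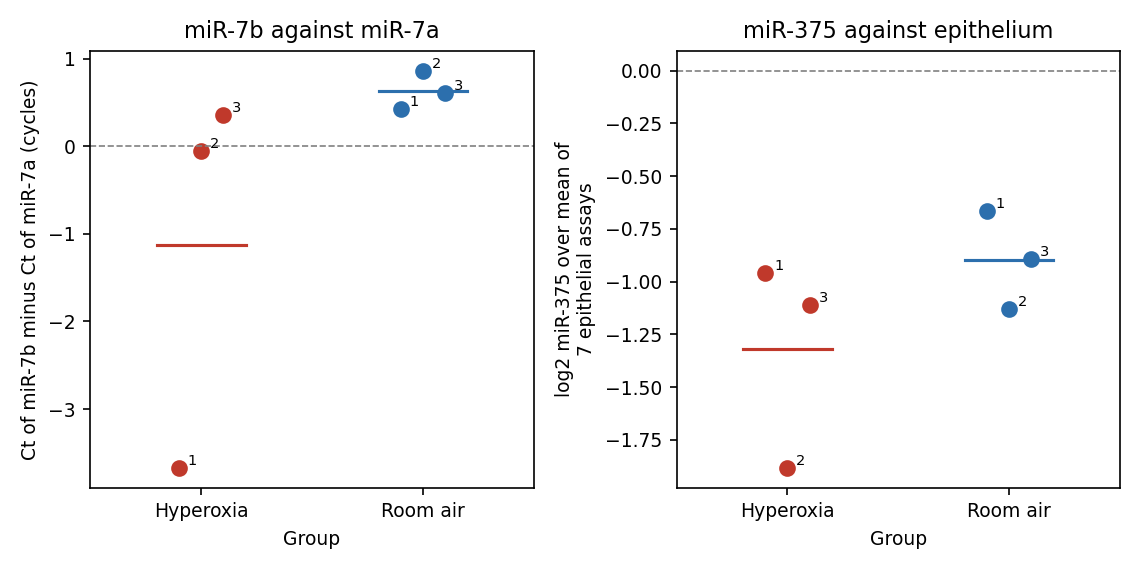
Within-sample comparisons with hyperoxia in red on the left and room air in blue on the right, points numbered by replicate and bars at the mean. In the left panel (cycles) hyperoxia 1 stands far below the others at -3.67, and in the right panel (log2 ratio) hyperoxia 2 is lowest at -1.88.

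miR-9, made by neural progenitors and neurons, where it limits progenitor genes, had a Ct of 26.05, 25.81 and 26.57 in hyperoxia and of 25.47, 25.49 and 25.54 in room air. The room air values lay close together, and all hyperoxia values were later. Relative abundance was -2.58, -3.20 and -3.27 in hyperoxia, against -3.44, -3.01 and -2.94 in room air, where the groups overlapped. Its log2 fold change was 0.11 ± 0.31 (SE, 95% interval -0.65 to 0.87; limma adjusted p = 0.935), and its sign turned to -0.45 with the small RNA controls as the reference and to -0.65 without normalization. The sign also turned without hyperoxia 1 (-0.11) and without room air 1 (-0.043).

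miR-128a, a brain-enriched miRNA that dampens the excitability of neurons, was the steadiest member. Its Ct was 26.41, 25.98 and 26.26 in hyperoxia, against 25.15, 25.45 and 25.65 in room air. Its relative abundance was -2.95, -3.36 and -2.95 in hyperoxia and -3.12, -2.97 and -3.05 in room air. All 6 values thus lay close together after normalization, and 9.57% of the 282 assays detected throughout had a smaller spread within groups. The log2 fold change was -0.04 ± 0.24 (SE, 95% interval -0.63 to 0.55; limma adjusted p = 0.958). It was 0.11 without hyperoxia 2, -0.60 with the small RNA controls as the reference and -0.80 without normalization (limma adjusted p = 0.219 for the last).

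miR-137, which acts in the maturation of neurons, had a Ct of 29.16, 29.35 and 28.82 in hyperoxia and of 28.37, 29.19 and 28.38 in room air. Room air 2 lay within the hyperoxia range and the other room air samples were earlier. Relative abundance was -5.70, -6.74 and -5.51 in hyperoxia, against -6.34, -6.71 and -5.78 in room air, and the groups overlapped. As relative abundance its log2 fold change was 0.29 ± 0.44 (SE, 95% interval -0.82 to 1.40; limma adjusted p = 0.867). It was 0.68 without hyperoxia 2, 0.026 without hyperoxia 3 and, with the sign turned, -0.27 against the small RNA controls.

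**Figure D4:**
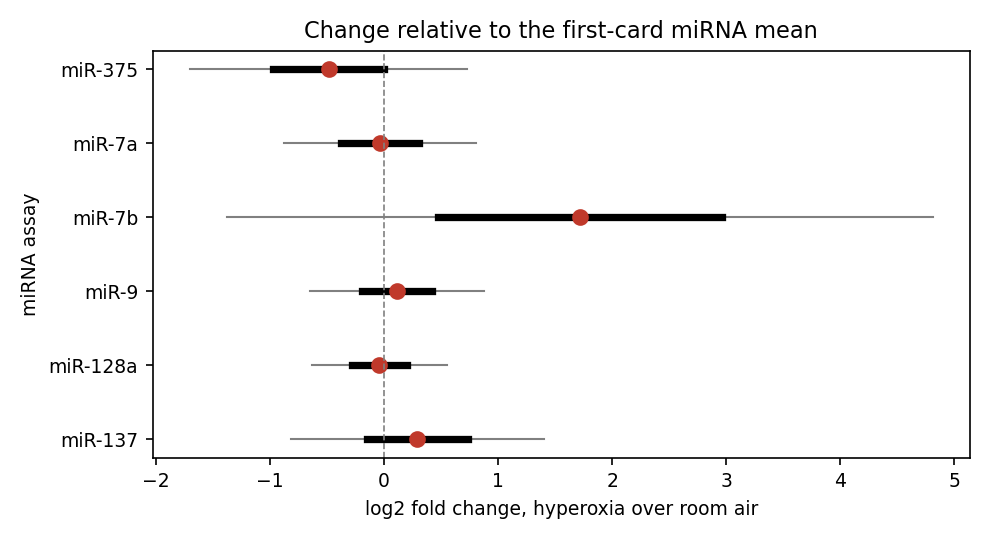
The log2 fold change of relative abundance, hyperoxia over room air (horizontal axis), for the 6 members tested, with thick bars for the SE and thin lines for the 95% interval from limma with 3 samples per group. All 6 intervals include 0, and that of miR-7b, from -1.37 to 4.81, is the widest.

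miR-124, which in neurons represses the genes of non-neuronal cells, differed in how many samples it was detected in. Its Ct was 29.86, 31.39 and 28.50 in hyperoxia, against 30.61, 40 and 40 in room air. It was thus detected in 3 of 3 hyperoxia samples and in 1 of 3 room air samples, and the room air value lay within the hyperoxia range. With 1 room air value it could not enter the main test. Among all first-card miRNA assays, 6 (1.6%) were detected in at least 2 more hyperoxia than room air samples, miR-124 among them, and 2 (0.533%) in at least 2 more room air samples. With the undetected wells set at the ceiling of 35, miR-124 averaged at least 20.8-fold higher in hyperoxia lungs in relative abundance. That figure takes in the later card mean of hyperoxia (0.76 cycles), so on the raw Ct the bound is smaller. Neither the raw bound nor one against the small RNA controls was computed. On the relative scale the lower bound ran from 12.0-fold without hyperoxia 3 to 50.9-fold without room air 1. It assumes that the wells at 40 did not fail, which was not tested. The authors' deposited table gives a fold of 167, in which a Ct of 40 counts as a measurement. Treated that way here, the log2 fold change was 7.34 ± 2.71 (SE) and the limma adjusted p 0.416.

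In the authors' deposited table, whose values match the first-card U6 wells as the reference, the folds of the other members were 0.569 for miR-375, 0.778 for miR-7a, 2.62 for miR-7b, 0.863 for miR-9, 0.775 for miR-128a and 0.977 for miR-137. The table gives no test. miR-9 and miR-137 stood below 1 there and above 0 in log2 relative abundance here.

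The opposite strands of the same hairpins have wells on the second card, where 2 samples of each group were used. Names on that card do not match the assay numbers beside them, so the identity of these wells is uncertain. hsa-miR-9#, whose mouse sequence is shown to compare with miR-9 above, had a Ct of 28.57 and 29.09 in hyperoxia and of 28.83 and 28.37 in room air.
miR-9 opposite strand: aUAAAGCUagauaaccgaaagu
Its seed, in capitals, is not that of miR-9. The groups overlapped, and the log2 fold change was -0.04 ± 0.38 (limma adjusted p = 0.969). rno-miR-7a# had a Ct of 22.75 and 22.99 in hyperoxia, against 21.98 and 22.47 in room air, and rno-miR-7# a Ct of 21.52 and 22.00 in hyperoxia, against 21.15 and 21.29 in room air. Both were later in hyperoxia without overlap, a pattern that 46.5% of the first-card assays detected throughout had with 3 samples per group. With 2 samples per group this says little, and the share of all second-card assays that did so was not counted. The log2 fold changes of rno-miR-7a# and rno-miR-7#, -0.46 ± 0.39 and -0.35 ± 0.36, did not pass (limma adjusted p = 0.754 and 0.787). Both were above 0 when the first card's mean served as the reference, at 0.20 and 0.31. hsa-miR-124# had a Ct of 40 in all samples.

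A list of other miRNAs, taken here as brain-enriched, was compared in the same way. It held miR-129-3p, miR-129-5p, miR-132, miR-134, miR-135a, miR-135b, miR-138, miR-139-3p, miR-139-5p, hsa-miR-149, miR-153, miR-183, miR-212, miR-218, miR-219, miR-383 and miR-488. Which lung cells make them was not tested, so the list is not a measure of neural cells. Its summed first-card level, in multiples of the card's mean level, ran from 109.9 to 159.1 in hyperoxia and from 122.2 to 196.4 in room air. Most of that sum is miR-218, at a relative abundance of 6.13, 6.34 and 7.14 in hyperoxia, against 7.47, 7.45 and 6.75 in room air. The other first-card assays lay on both sides of the mean, with miR-132 above it and miR-153 and miR-383 below it in every sample. The sum of the members ran from 2.22 to 6.43 in hyperoxia and from 5.02 to 6.56 in room air. Most of it is miR-375, whose relative abundance was lowest in hyperoxia 2, at 0.98. All 17 assays of the list were tested, 15 of them on the first card, and 0 passed in either direction. hsa-miR-149 and miR-212 are on the second card, where the identity of wells is uncertain as said above. The list had 8 positive and 9 negative log2 fold changes with a median of -0.22, against -0.12 over all assays, and limma adjusted p between 0.446 and 0.935. Which of both medians was lower depended on the processing: the list stood at 0.10 against 0.04 over all assays with median normalization, at -0.03 against -0.10 with a Ct ceiling of 32, and at -0.12 against -0.14 without room air 1. Without room air 2 the list's median was -0.37. An unadjusted p under 0.05 was seen for 5 of 17, beside 9.07% of all 551 assays and 10.9% of those on the first card. Among the 14 assays detected throughout on the first card, 5 had groups that did not overlap in relative abundance, 2 higher and 3 lower in hyperoxia, beside the 5.67% and 16.3% of all such assays.

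The 4 with the smallest unadjusted p pointed both ways. miR-153, which acts at synapses, had a Ct of 33.09, 31.68 and 31.56 in hyperoxia, against 29.29, 29.59 and 30.72 in room air, near the detection limit. Its log2 fold change was -1.48 ± 0.48 (limma adjusted p = 0.446). miR-132, induced by neuronal activity, had a Ct of 18.54, 17.36 and 19.96 in hyperoxia, against 19.10, 19.40 and 20.11 in room air. Its raw Ct values overlapped, and its log2 fold change was 1.68 ± 0.56 (limma adjusted p = 0.456). miR-383 stood at -1.18 ± 0.40 and miR-135a at 1.05 ± 0.40, with limma adjusted p of 0.462 and 0.518. Sizes depended on the reference: without normalization miR-153 was at -2.24, miR-132 at 0.92, miR-383 at -1.94 and miR-135a at 0.29, and against the small RNA controls they were at -2.04, 1.11, -1.74 and 0.49.

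How members varied together over the 6 samples is given as a description, since all values of a sample share 1 RNA preparation and 1 normalization. miR-375 and miR-128a had a Pearson correlation of 0.84 in relative abundance, and both had their lowest value in hyperoxia 2. miR-7a and miR-7b, which share a seed, had one of 0.49, and miR-7b and miR-9 one of 0.75, with hyperoxia 1 highest for both. miR-7a ran against miR-128a at -0.58. Over all pairs of the 6 members the correlation lay between -0.58 and 0.84.

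Among the 281 other first-card assays, those most like a member over the 6 samples were as follows. Picking the highest of 281 correlations over 6 samples gives high values by itself, so the pairs are a description only. miR-301a and miR-301b were most like miR-375, with Pearson correlations of 0.96 and 0.94. Both sit in plate row G, whose median SD within groups was 2.12 cycles against 0.42 to 0.72 in the other rows, and both had a Ct of 26.2 in hyperoxia 2 with 18.3 to 21.3 elsewhere. For miR-128a they were miR-345-5p (0.98) and the epithelial miR-200a (0.93), and for miR-137 miR-204 (0.94) and miR-34c (0.92). For miR-7a they were miR-20a (0.88) and miR-18a (0.85), and for miR-9 miR-27a (0.91) and miR-331-3p (0.87), the last also in row G. For miR-7b they were miR-23a (0.98) and rno-miR-347 (0.95), which like miR-7b were highest in hyperoxia 1, where rno-miR-347 had a Ct of 13.5 against 27.4 to 30.3 in the other samples.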

How the data were processed

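RNA was copied to cDNA with Megaplex primers (sets A and B) and pre-amplified over 12 cycles, per the labels' protocols. The authors deposited a table of 768 wells with a Ct per well and sample, not normalized, and a fold ratio of hyperoxia over room air per the file headers. The instrument, its software and the threshold are not given in the sources used here. Wells were read as 2 cards of 384.

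Ct values of 35 or more were set missing. To get relative abundance, a well's Ct was subtracted from its card's mean over those miRNA assays that every sample used had detected (282 on the first card, 249 on the second). Assays detected in at least 2 samples of each group were compared with limma 3.58.1 in R 4.3.3 (lmFit, eBayes, two-sided, Benjamini-Hochberg over 551 assays). Single values per sample were compared by exact permutation. The fit was tested on simulated data in which all assays had the same noise, unlike the assays here. The number of samples limits the precision. Wells of the members were found by name, but which miRNAs to take as members, and the lists and tests, were chosen with earlier results of these data known. Assays described are all members, their opposite strands, the 4 listed brain-enriched assays of smallest p and the 2 assays most correlated with each member. Others are named as parts of the lists. The alternatives were other references, Ct ceilings and filters, the shared second-card values kept, a replicate block and samples left out. U6 wells had identical Ct in pairs in all 6 samples.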

Additional observations from a re-analysis of the deposited data

How the results depend on the processing

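Of 120 values of the 6 members over 20 alternatives each, 106 kept their sign, 14 turned it and 0 passed (limma adjusted p from 0.201 to 0.994). Against the small RNA controls, without normalization, and with every Ct kept, miR-9 was at -0.45, -0.65 and -0.26, miR-137 at -0.27, -0.47 and -0.080, 1 member was positive each time, and 4, 3 and 4 brain-enriched assays were positive. The median of all assays was -0.62 under the first and the second of these. With the epithelial assays as reference, added after seeing the data, miR-128a was at 0.024, miR-7a at 0.029 and 5 members were positive. With 1 sample left out, miR-375 ran from -0.78 to 0.034, miR-128a from -0.14 to 0.11, miR-7a from -0.22 to 0.24, miR-9 from -0.11 to 0.22, miR-7b from 0.32 to 2.74 and miR-137 from 0.026 to 0.68, with 2 to 5 members and 4 to 8 brain-enriched assays positive. Leaving out hyperoxia 3 gave the 4, of 14 listed assays that were then tested, and leaving out hyperoxia 2 gave the 8, of 17. With median normalization, the first card as reference of both, and the epithelial assays, hsa-miR-9# was at 0.33, 0.62 and 0.53 and rno-miR-7# at 0.025, 0.31 and 0.22. rno-miR-7a# was at 0.20 and 0.11 under the last 2 of these. hsa-miR-9# was at 0.027 with every Ct kept and at 0.055 with the shared values kept in hyperoxia 2. Calls over all assays were 1 in place of 0 with a Ct ceiling of 32 and with the first card alone (miR-34a) and with every Ct kept (miR-692), and ran from 0 to 1 with 1 sample left out (miR-322, without hyperoxia 1). The cause of these changes was not tested. Samples with the same replicate number did not deviate together (correlations of -0.34, -0.23 and -0.18 over 282 assays). A fit with the replicate block on the first card gave 0 calls and member adjusted p of 0.583 to 0.956 by limma. With 3 samples per group, intervals of the members were wide, and the values do not tell apart the differences that lie inside them.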
